A study of Mus musculus with 10 samples.

Results

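The FGF genes examined here were 35 members of the fibroblast growth factor pathway, of the 48972 genes with counts in the series. They comprise 18 genes for secreted ligands, 4 for the FGF homologous factors (Fgf11 to Fgf14), 5 receptor genes (Fgfr1 to Fgfr4 and Fgfrl1) and 8 feedback genes (Spry1, Spry2, Spry4, Spred1, Spred2, Spred3, Dusp6 and Etv5). The set was chosen by name, selected on the fall of Fgf18 in cdKO samples, and the question was whether other ligands or feedback genes changed beside it. The difference of Fgf18 is therefore given as a description, with no test. RNA was sequenced from YFP-positive cells sorted from mouse spinal cord at e10.5, in 5 control and 5 cdKO samples. All samples carried Olig2-Cre+/- and Rosa26R-YFP+/-. Control samples were Oc1+/Flox and Oc2+/Flox, so they also kept only 1 functional copy of each gene after recombination, and cdKO samples were Oc1-/Flox and Oc2-/Flox. Olig2-Cre marks the progenitor domain of motor neurons (MNs) and its progeny, so the sort holds progenitors and some interneurons beside MNs. The labels do not say whether each sample came from separate embryos, and p-values measure the spread between these samples.

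Secreted FGFs bind receptor tyrosine kinases together with heparan sulfate, and the receptors signal through adaptor proteins to RAS and ERK. ERK signalling induces its own inhibitors, among them Sprouty and Spred proteins and the phosphatase Dusp6, and the transcription factor Etv5, which are widely read as a record of pathway activity. In the early spinal cord FGF signals hold back differentiation and pattern the cord along its length, and Fgf18 is known for expression in developing MNs. The FGF homologous factors are not secreted and bind voltage-gated sodium channels inside the cell.

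The values are deposited counts of reads on exon bins, the non-overlapping parts of annotated exons, summed per gene and given as CPM, counts relative to a library size scaled by the TMM method of edgeR. Total counts ranged from 63932395 to 107709534 in control and from 72315782 to 84249157 in cdKO samples. Of the 2 targeted genes, Onecut1 (Oc1) was lower where the labels place its loss. Its exon 1 (chromosome 9) had 63 to 210 counts in control and 0 to 17 in cdKO samples, and Onecut3, which was not targeted, had 29 to 68 and 0 to 3 (exact two-sided permutation test, p = 0.00794 for each, the smallest that 5 samples against 5 allow). Onecut2 (Oc2), the other targeted gene, was not lower, with 103 to 636 counts in control and 106 to 974 in cdKO samples (log2 fold change 0.52, standard error 0.68, adjusted p = 0.997 by edgeR with Benjamini-Hochberg adjustment). Per the study, null Oc2 alleles still give truncated transcripts over these bins, so its counts do not check the labels. In 2 libraries the FGF genes stood apart. The cdKO replicate 5 had counts on 198569 bins, against 243970 to 271591 in the other 9 samples, a TMM factor of 0.717, and coverage shifted towards 3′ ends by 0.068 of the gene length (median of 7953 genes), against 0.006 or less in the others. Control replicate 5 had the highest summed level of V3 interneuron markers, 99.8 CPM against 21.7 to 39.2 in the other samples, and of floor plate markers, 51.3 CPM against 14.8 to 27.7. These sums rested on Nkx2-9 (84.5 CPM) and Foxa2 (46.4 CPM), while Sim1 (0.148 CPM), which defines V3 interneurons, and Shh (2.47 CPM) of the floor plate were at their lowest of the 10 samples there. Differences are therefore also given for replicates 1 to 4 only, a choice made after seeing the data.

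Of the 35 genes, 25 passed a filter on low counts (minimum 10) and were tested, among 17835 genes in all. Fgf1, Fgf4, Fgf6, Fgf7, Fgf8, Fgf16, Fgf17, Fgf21, Fgf22 and Fgf23 did not pass. Fgf6 had at most 1 count in any sample, and Fgf1 reached 36. Fgf8, the ligand of the isthmus and of the caudal end of the embryo, had 32 counts in control replicate 4, 26 in cdKO replicate 5 and 4 or fewer in the other 8 samples.

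Per length of exon over all bins, the receptors Fgfr3, Fgfr2 and Fgfrl1 led. Fgfr3 had the highest level, with a median over the 10 samples of 32.5 CPM per kb (range 3.70 to 57.1). It was followed by Fgfr2 at 14.2, the decoy-like receptor Fgfrl1 at 10.6 and Dusp6 at 8.80 CPM per kb. Fgf13 was the highest of the FGF homologous factors at 4.32 CPM per kb, and Fgf18 the highest secreted ligand at 3.50 CPM per kb. Fgfr1 followed at 3.32, Spred1 at 2.34, Fgf15 at 1.90, Spry1 at 1.34 and Etv5 at 1.25 CPM per kb. Over all bins, these 11 genes had a median of at least 1 CPM per kb, and the other 24 lay below. The ranges of neighbours in this order overlapped throughout the 11 genes, so their order is a description. The other secreted ligands that were tested, Fgf2, Fgf3, Fgf5, Fgf9, Fgf10 and Fgf20, had medians between 0.124 and 0.583 CPM per kb.

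**Figure D1:**
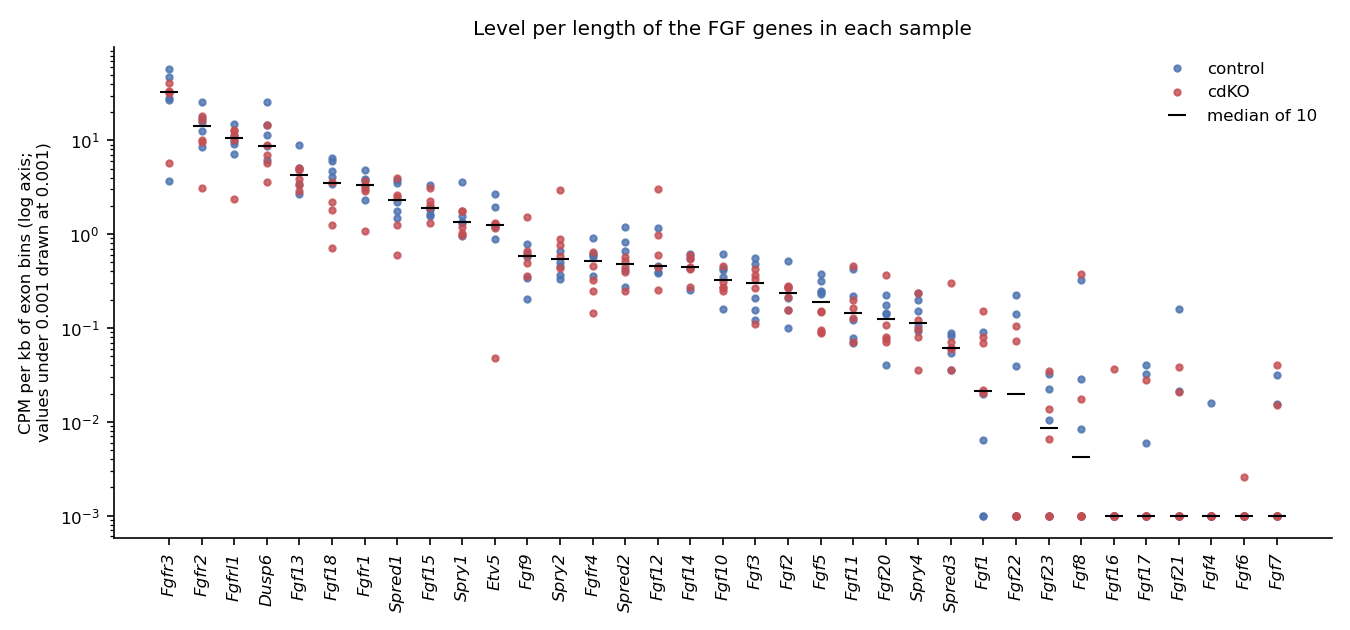
CPM per kb of exon bins on a log axis for each of the 35 FGF genes, 1 point per sample (control blue, cdKO red) and a bar at the median of the 10 samples. Fgfr3, Fgfr2, Fgfrl1 and Dusp6 lie highest, Fgf18 is the highest secreted ligand, and 6 genes have a median of 0.

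Fgf18 (ENSMUSG00000057967, minus strand of chromosome 11, 33117430 to 33147400 in GRCm38) encodes a ligand of the FGF8 subfamily. It measured 4.04, 7.09, 4.85, 5.60 and 7.65 CPM in control replicates 1 to 5 and 4.25, 1.49, 2.62, 2.17 and 0.847 CPM in cdKO replicates 1 to 5. Only cdKO replicate 1 reached into the control range, where it exceeded control replicate 1, and the other 4 cdKO samples lay below every control sample. Control samples averaged 5.85 ± 1.51 CPM (SD, n = 5), and the cdKO mean of 2.27 ± 1.29 (SD, n = 5) was 38.9% of it. On the log2 scale the change was -1.36, and -1.04 with replicates 1 to 4 only. Without cdKO replicate 1 it was -1.71. The standard error over all 10 samples was 0.42, which is not read as a test because Fgf18 was chosen on its fall.

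The lower level of Fgf18 extended over the gene. Of its 6 exon bins, 1 had 8 counts in all samples together, and in the other 5 the cdKO mean was between 37.5% and 48.6% of the control mean. The last bin, with 602 bases the longest, averaged 2.33 ± 0.639 CPM in control and 0.875 ± 0.437 in cdKO samples (SD, n = 5 each). On this bin alone the lowest control value, 1.76, lay above the highest cdKO value, 1.56, and on bins 1, 2, 4 and 5 the groups overlapped. Because Fgf18 was chosen on its fall, nothing is read from this separation. Summed marker levels of MNs overlapped between the groups, at 539 to 779 CPM in control and 404 to 922 in cdKO samples. Of the 9 MN markers, 4 had a negative and 5 a positive log2 fold change, with a median of 0.02. The lowest was that of Isl1 (log2 fold change -0.82, standard error 0.31, unadjusted p = 0.018 and adjusted p = 0.94 by the quasi-likelihood test of edgeR with Benjamini-Hochberg adjustment). Per the study, Isl1 is itself a direct target of Onecut factors. Of 7 markers of MN progenitors, 6 had a negative and 1 a positive log2 fold change, with a median of -0.17. Over all genes tested, 51.8% had a negative one. The summed levels of these 7 markers overlapped, at 1373 to 2654 CPM in control and 1380 to 2686 in cdKO samples. In sorted bulk RNA, fewer cells of a type and less RNA per cell cannot be told apart, and the part of cell composition in the difference was not tested.

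**Figure D2:**
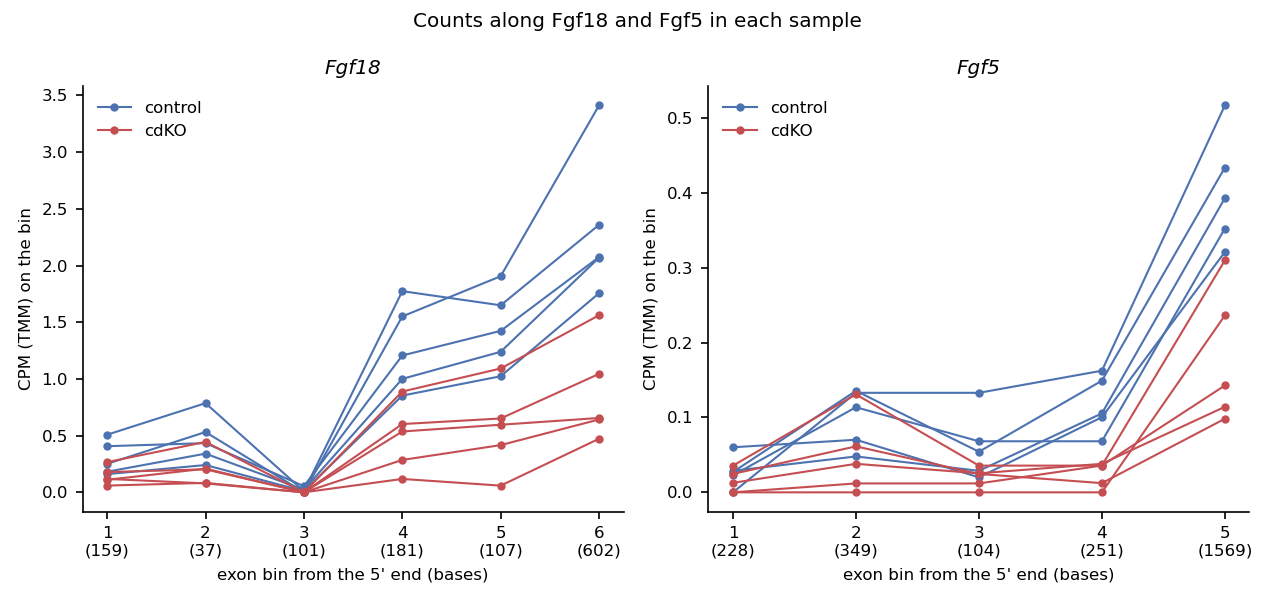
CPM on each exon bin of Fgf18 (left) and Fgf5 (right), from the 5′ end, with the length of the bin in bases under its number and 1 line per sample (control blue, cdKO red). Of the bins of Fgf18, only on the last does every cdKO line lie below every control line, and the last bin of Fgf5 holds most of its counts.

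Among the 24 tested genes other than Fgf18, none passed an adjusted p of 0.05, and neither did any of the 17835 genes tested (0.0% of all genes; quasi-likelihood test of edgeR with Benjamini-Hochberg adjustment). The DESeq2 Wald test and limma-voom also called none of the 24. At an unadjusted p under 0.05, 1 of the 24, Fgf5, was lower, against 0.813% of all genes tested, and 1, Spry2, was higher, against 4.17%. The log2 fold change was negative in 17 of the 24 genes, against 51.8% of all genes tested, with a median of -0.20 beside -0.02 over all genes. The 24 genes were named with earlier results in view, and nothing is read from these shares.

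Fgf5 (ENSMUSG00000029337, chromosome 5, 98254184 to 98277030) encodes a ligand of the FGF4 subfamily that is known for ending the growth phase of hair follicles. It measured 0.572, 0.604, 0.625, 0.800 and 0.945 CPM in control replicates 1 to 5 and 0.229, 0.381, 0.221, 0.370 and 0.236 CPM in cdKO replicates 1 to 5. All 5 cdKO samples lay below all 5 control samples. This was the only 1 of the 25 tested FGF genes whose groups did not overlap, where 0.224% of all genes tested were separated in this direction and 0.179% in the other. The level was low, at 12 to 64 counts per sample, and the last bin held 238 of its 409 counts. Its log2 fold change was -1.30 with a standard error of 0.43 (unadjusted p = 0.0094, adjusted p = 0.94, edgeR with Benjamini-Hochberg adjustment), and -1.12 with replicates 1 to 4 only. Over the alternative settings the adjusted p ranged from 0.27 to 0.9999, so the difference did not pass the threshold in any of them.

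The other secreted ligands had log2 fold changes between -0.33 and 0.52. Fgf9, a ligand expressed by many neurons, measured 0.873 to 3.37 CPM in control and 1.52 to 6.44 in cdKO samples, with the highest value in cdKO replicate 5. Its log2 fold change of 0.52 (standard error 0.47) became 0.09 with replicates 1 to 4 only. Fgf10, a ligand of mesenchyme and of some neurons, measured 0.729 to 2.80 CPM in control and 1.14 to 2.13 in cdKO samples. Fgf15, the mouse counterpart of human FGF19, measured 4.74 to 10.2 CPM in control and 4.04 to 9.40 in cdKO samples, which is 0.04 on the log2 scale (standard error 0.33). Fgf3 measured 0.285 to 1.28 CPM in control and 0.256 to 0.990 in cdKO samples. For each of these genes the groups overlapped.

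Counts of several FGF genes cannot be assigned with certainty, because the counting is not stated to use strand and other annotated genes cover the same bins. For Fgf2, 99.7% of counts lay on such bins, at the 3′ end where Nudt6 of the opposite strand overlaps, and its first 10 bins held 4 counts in all. The share was 100% for Fgf20, 55.0% for Fgf14, 46.0% for Fgf15, 23.3% for Spry1 and 20.1% for Fgf10.

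**Figure D3:**
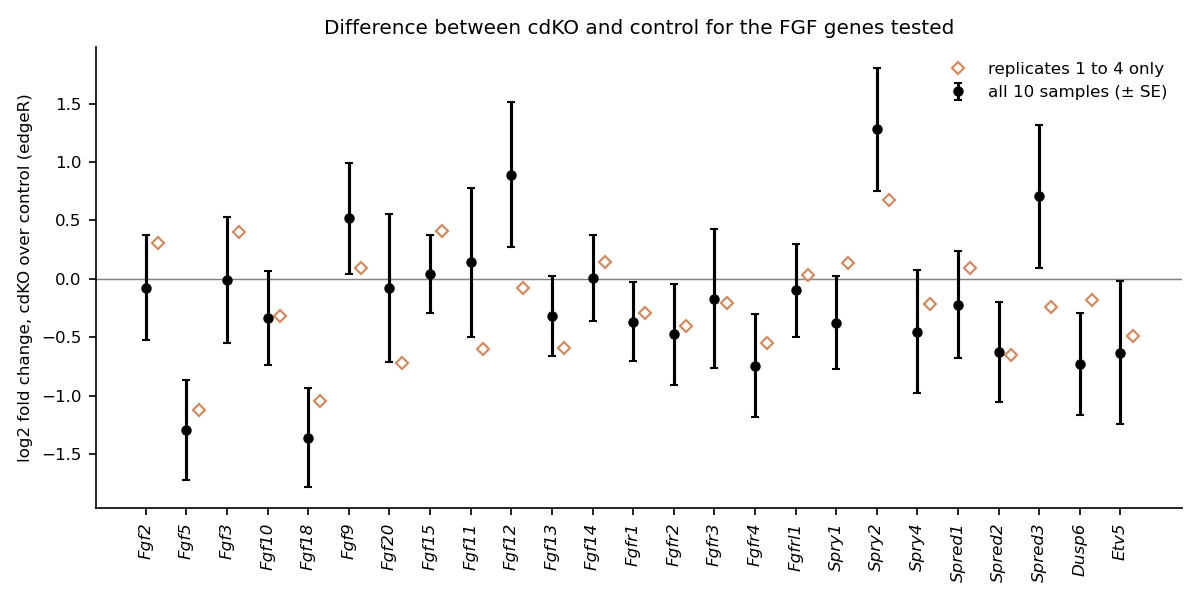
Log2 fold change of cdKO over control for the 25 tested FGF genes from edgeR, with points for all 10 samples and bars of 1 standard error, and open diamonds for replicates 1 to 4 only. Fgf18 at -1.36 and Fgf5 at -1.30 lie lowest, Spry2 at 1.28 lies highest, and the diamonds of Fgf2, Fgf3, Fgf11, Fgf12, Fgfrl1, Spry1, Spred1 and Spred3 lie on the other side of 0 from their points.

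All 5 receptors had negative log2 fold changes, where 51.8% of all genes tested had one, and none passed the threshold. Those of Fgfr3 with limma-voom or a replicate block, of Fgfr4 on its highest bin and of Fgfrl1 with replicates 1 to 4 only turned positive. Fgfr3, which is expressed in ventricular zone progenitors, measured 204, 340, 195, 409 and 26.5 CPM in control replicates 1 to 5 and 295, 236, 229, 243 and 41.4 CPM in cdKO replicates 1 to 5. Replicate 5 was the lowest of both groups by a wide gap, and the remaining samples of the groups overlapped. Its log2 fold change was -0.17 (standard error 0.59) and -0.20 with replicates 1 to 4 only. Fgfr2 averaged 160 ± 64.5 CPM in control and 115 ± 60.2 in cdKO samples (SD, n = 5 each), with a change of -0.47 on the log2 scale (standard error 0.43). With each sample left out, this change was between -0.70 and -0.24. Fgfr1 averaged 35.8 ± 9.16 CPM in control and 27.8 ± 10.1 in cdKO samples (SD, n = 5 each), with a change of -0.37 on the log2 scale (standard error 0.34). For Fgfr1 the change was between -0.49 and -0.16 with each sample left out.

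Fgfr4, the receptor with the lowest level per length, measured 2.04, 2.10, 1.27, 3.24 and 2.19 CPM in control and 1.61, 1.14, 0.885, 2.30 and 0.512 CPM in cdKO replicates 1 to 5. The groups overlapped, with cdKO replicates 1 and 4 inside the control range. Between the groups the log2 fold change was -0.74 (standard error 0.44, adjusted p = 0.96 by edgeR with Benjamini-Hochberg adjustment). On its single highest bin the log2 fold change was 0.11, and with each sample left out it was between -1.06 and -0.54. Fgfrl1, which lacks the kinase domain, measured 19.9 to 41.8 CPM in control samples. It measured 28.3 to 35.6 CPM in cdKO replicates 1 to 4 and 6.64 in cdKO replicate 5.

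Ligand specificity of Fgfr1 to Fgfr3 depends on a mutually exclusive pair of exons for the second part of the third immunoglobulin domain, IIIb or IIIc. Epithelia typically use IIIb and mesenchymal and neural cells IIIc, and Fgf18 acts mainly through the IIIc forms. Both exons of each receptor were located in GENCODE M21 transcripts, and the counts on their bins were compared.

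The cells used the IIIc exons in both groups. For Fgfr1, the IIIb exon had no count in 9 samples and 2 counts in cdKO replicate 4, while the IIIc exon had 30 to 166 counts in control and 0 to 119 in cdKO samples. In control replicate 2, 0 of 166 counts on IIIb allows a share of up to 2.20% (exact 95% interval). For Fgfr2, the IIIb exon held 2.03%, 2.68%, 0.947%, 4.76% and 17.6% of the counts on both exons in control replicates 1 to 5, and 0.403%, 3.71%, 2.70%, 1.62% and 0% in cdKO replicates 1 to 5. Control replicate 5 stood above the rest with 23 of 131 counts (exact 95% interval 11.5% to 25.2%), and cdKO replicate 5 rested on 3 counts. The mean was 5.60 ± 6.83% for control and 1.69 ± 1.55% for cdKO (SD, n = 5 each), a difference of -3.91 percentage points within the spread of the samples (exact two-sided permutation test, p = 0.21, adjusted p = 0.64 over 3 receptors). Without control replicate 5 the control mean was 2.60% and the difference -0.92 percentage points.

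For Fgfr3, the IIIb share was between 0.894% and 3.13% in control replicates 1 to 4 and between 0.726% and 2.57% in cdKO replicates 1 to 4. Replicate 5 had 14.3% of 21 counts in control and 11.8% of 17 in cdKO, with intervals reaching from 3.05% to 36.3% and from 1.46% to 36.4%. The means did not differ beyond the spread (exact two-sided permutation test, p = 0.79, adjusted p = 0.79). The bin between both exons of Fgfr3, which is intronic to the 2 forms, had 0.499 counts per base over all samples, close to the 0.728 per base of the IIIb exon and far below the 39.6 per base of IIIc. Whether counts on IIIb of Fgfr3 come from spliced IIIb transcripts was not tested. All intervals cover counting error only.

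**Figure D4:**
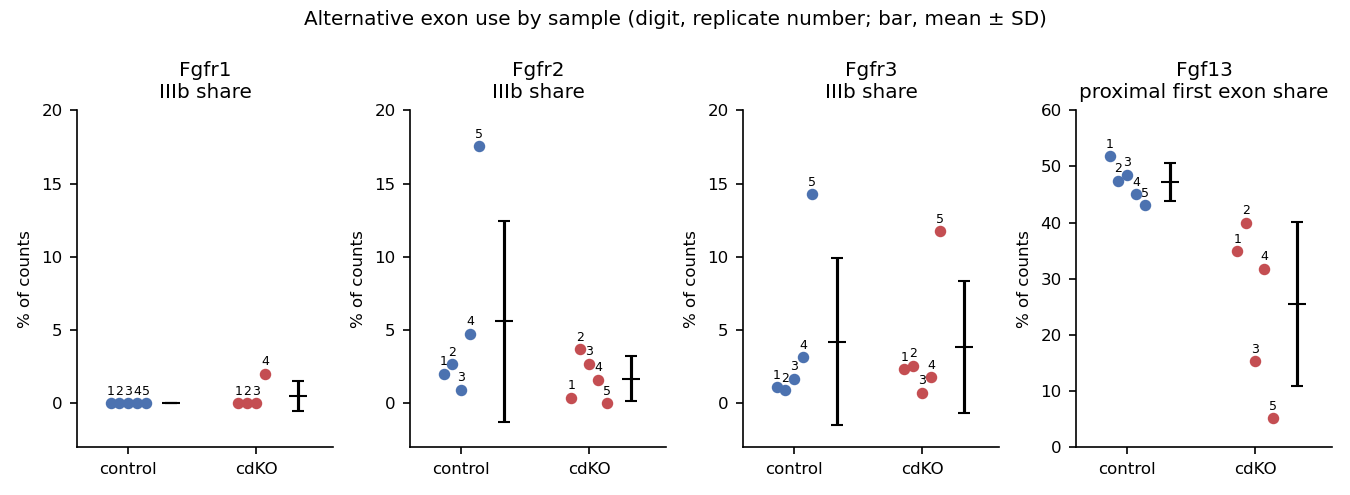
Percent of counts on the IIIb exon, of the counts on IIIb and IIIc, for Fgfr1, Fgfr2 and Fgfr3, and percent of first-exon counts on the proximal first exon of Fgf13, 1 point per sample with its replicate number and bars for the mean ± SD. The IIIb share stays under 5% except in control replicate 5 of Fgfr2 and in replicate 5 of both groups for Fgfr3, and the 5 cdKO samples of Fgf13 lie below the 5 control samples. The Fgfr1 share of cdKO replicate 5 is undefined (no counts).

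Among the FGF homologous factors, Fgf13 (ENSMUSG00000031137, minus strand of chromosome X, 59062145 to 59568071) was the highest. It measured 35.5, 19.9, 13.9, 20.3 and 10.8 CPM in control and 19.3, 11.5, 15.5, 13.6 and 20.6 CPM in cdKO replicates 1 to 5. The groups overlapped, with the highest value in control replicate 1 and the lowest in control replicate 5. The log2 fold change was -0.32 (standard error 0.34, adjusted p = 0.997 by edgeR with Benjamini-Hochberg adjustment). Fgf12 measured 3.60, 1.17, 1.22, 1.37 and 1.40 CPM in control and 1.85, 0.773, 3.03, 1.37 and 9.28 CPM in cdKO replicates 1 to 5. Its highest value was that of cdKO replicate 5, and the other samples of the groups overlapped. The log2 fold change of 0.89 (standard error 0.62) became -0.08 with replicates 1 to 4 only. Fgf14 averaged 1.92 ± 0.568 CPM in control and 1.92 ± 0.523 in cdKO samples (SD, n = 5 each), and Fgf11 averaged 0.558 ± 0.456 and 0.621 ± 0.458.

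Isoforms of Fgf13 differ by their first coding exon, which sets the amino-terminal end of the protein. The proximal one lies near the shared exons, with its coding part at chrX:59133877-59134063, and the distal one far upstream, with its coding part at chrX:59567140-59567188 (both on the minus strand). Their coding parts, of 187 and 49 bases, read from GENCODE M21 transcripts, are shown because the use of these exons differed between the groups, with the start codon in capitals.
Fgf13 proximal first coding exon: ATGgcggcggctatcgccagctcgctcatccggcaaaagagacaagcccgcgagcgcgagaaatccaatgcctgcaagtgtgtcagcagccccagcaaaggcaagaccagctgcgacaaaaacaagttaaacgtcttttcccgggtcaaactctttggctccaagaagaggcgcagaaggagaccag
Fgf13 distal first coding exon: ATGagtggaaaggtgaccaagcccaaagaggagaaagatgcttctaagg

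In control replicates 1 to 5, the proximal exon held 96 of 185, 66 of 139, 34 of 70, 37 of 82 and 22 of 51 counts on the first coding exons of Fgf13, which is 51.9%, 47.5%, 48.6%, 45.1% and 43.1%. In cdKO replicates 1 to 5 it held 43 of 123, 26 of 65, 12 of 78, 21 of 66 and 3 of 57 counts, which is 34.96%, 40.0%, 15.4%, 31.8% and 5.26%. All 5 cdKO samples lay below all 5 control samples, although the exact 95% intervals of the nearest samples overlapped, at 29.3% to 57.8% for control replicate 5 and 28.0% to 52.9% for cdKO replicate 2. The mean share was 47.2 ± 3.35% for control and 25.5 ± 14.6% for cdKO (SD, n = 5 each), a difference of -21.8 percentage points (exact two-sided permutation test, p = 0.0079, adjusted p = 0.016 over the 2 genes tested). Without cdKO replicate 5 the difference was -16.7 percentage points (exact permutation p = 0.0079, adjusted p = 0.016). With replicates 1 to 4 only it was -17.7 percentage points (exact permutation p = 0.029, the smallest that 4 against 4 allow, adjusted p = 0.057). Shares were not used to choose the genes.

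Whether the Fgf13 groups overlapped, and which cdKO samples were lower, depended on the distal bin counted, while the difference of the means was similar. With all bins of the distal block summed, the shares were 34.0% to 40.5% in control and 2.52% to 28.0% in cdKO samples, a difference of -18.0 percentage points, and the groups again did not overlap. With only the other distal bin of highest count, further upstream, they were 66.0% to 88.0% and 11.1% to 77.8%, and overlapped, with a difference of -21.9 percentage points (exact permutation test, p = 0.17, adjusted p = 0.35). On that bin cdKO replicates 1, 2 and 4 lay inside the control range, at 69.4%, 74.3% and 77.8%. Only cdKO replicates 3 and 5 lay below it, at 38.7% and 11.1%. Counts were also set against the exon bin next to the 3′-most bin of Fgf13, taken as shared by its isoforms. Per 100 counts there, the distal exon had 20.8 to 29.6 in control samples and 41.1 to 174 in cdKO samples, without overlap. The proximal exon had 22.4 to 27.6 per 100 in control samples and 9.68 to 27.4 in cdKO samples, with overlap. The highest distal value, 174, was that of cdKO replicate 5, whose bin taken as shared had 31 counts. The part of its 3′ shift of coverage in this value was not tested.

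For Fgf14 the proximal share did not differ beyond the spread, at 12.7 ± 10.45% for control and 18.8 ± 24.9% for cdKO (SD, n = 5 each; exact two-sided permutation test, p = 0.76, adjusted p = 0.76), on 4 to 28 counts per sample. Fgf11 has 1 annotated first coding exon, and only 1 of the 3 of Fgf12 had a bin, so neither was tested.

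Of the feedback genes, 6 of 8 had negative log2 fold changes, where 51.8% of all genes tested had one, and none passed the threshold. Those of Spry1 and Spred1 turned positive with replicates 1 to 4 only. Dusp6, which dephosphorylates ERK and was the highest per length, measured 17.1, 24.2, 31.7, 41.2 and 70.8 CPM in control and 19.7, 40.7, 16.1, 25.02 and 10.004 CPM in cdKO replicates 1 to 5. The highest value was that of control replicate 5 and the lowest that of cdKO replicate 5, and the groups overlapped. The log2 fold change was -0.73 (standard error 0.43, adjusted p = 0.96 by edgeR with Benjamini-Hochberg adjustment) and -0.18 with replicates 1 to 4 only. Etv5, an ETS factor induced by FGF signals, measured 3.60 to 11.1 CPM in control samples, 4.78 to 5.38 in cdKO replicates 1 to 4 and 0.197 in cdKO replicate 5, whose 10 counts all lay on a single bin at the 3′ end. Its log2 fold change was -0.63 (standard error 0.61), and between -0.79 and -0.33 with each sample left out.

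Spry2, a Sprouty inhibitor of receptor signalling, had the highest log2 fold change of the 25 genes. It measured 0.763, 1.05, 0.955, 0.691 and 1.39 CPM in control and 1.22, 1.58, 1.86, 0.918 and 6.22 CPM in cdKO replicates 1 to 5. The cdKO replicate 5 exceeded all other samples, and cdKO replicates 1 and 4 lay inside the control range. The log2 fold change was 1.28 (standard error 0.53, unadjusted p = 0.029, adjusted p = 0.94 by edgeR with Benjamini-Hochberg adjustment). Its value was 0.53 without cdKO replicate 5, where the unadjusted p was no longer under 0.05. Spred3 measured 0.381, 0.221, 0.512, 0.556 and 0.340 CPM in control and 0.444, 0.369, 0.221, 0.381 and 1.89 CPM in cdKO replicates 1 to 5. Its highest value was again that of cdKO replicate 5, the other samples overlapped, and the log2 fold change of 0.71 (standard error 0.61) became -0.24 with replicates 1 to 4 only.

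The remaining feedback genes overlapped between the groups. Spry1 measured 2.77 to 10.4 CPM in control and 2.998 to 5.19 in cdKO replicates 1 to 4, and Spry4 measured 0.421 to 1.09 CPM in control and 0.165 to 1.07 in cdKO samples. Spred1 measured 10.1 to 25.5 CPM in control and 4.08 to 27.1 in cdKO samples. Spred2 measured 1.26 to 5.49 CPM in control and 1.16 to 2.64 in cdKO samples, which is -0.63 on the log2 scale (standard error 0.43).

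**Figure D5:**
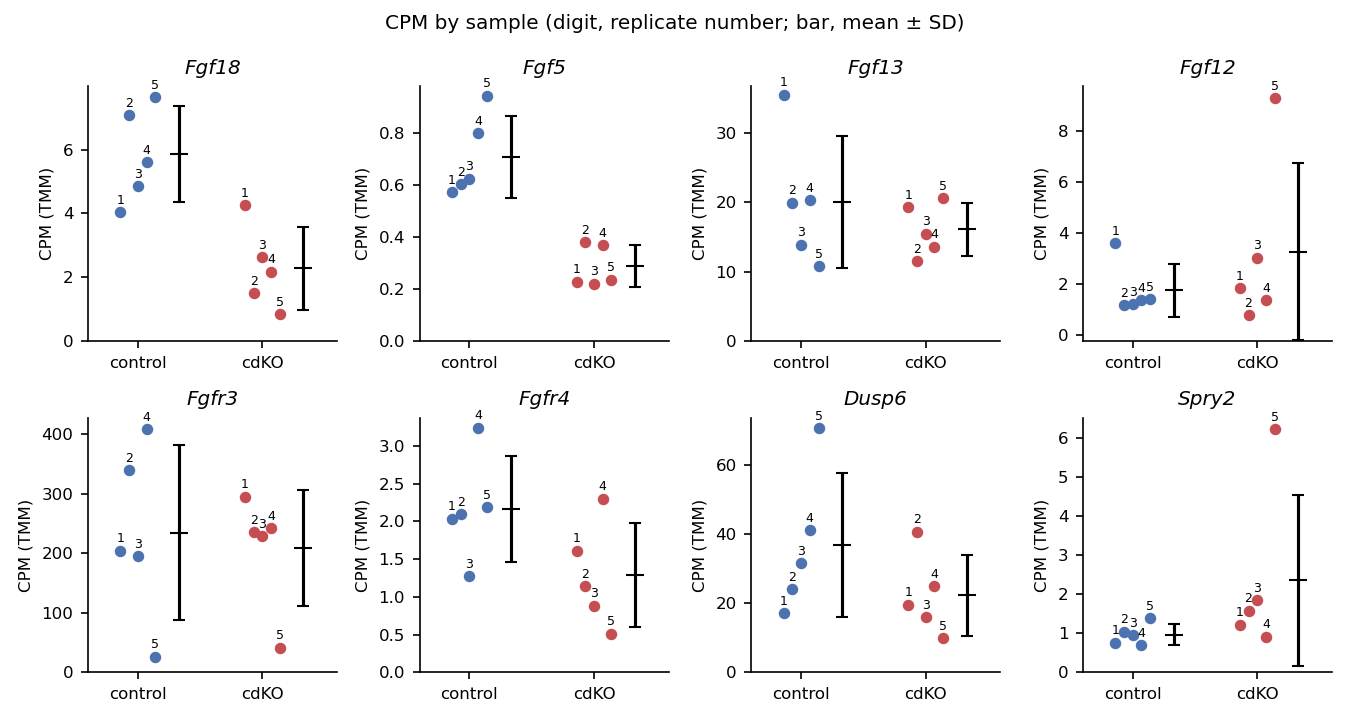
CPM by sample for 8 FGF genes, control in blue and cdKO in red, with the replicate number above each point and the mean ± SD beside each group. Fgf5 does not overlap between the groups, Fgf18 overlaps by cdKO replicate 1 alone, and the highest points of Fgf12 and Spry2 and the lowest cdKO points of Fgfr3, Fgfr4 and Dusp6 belong to cdKO replicate 5.

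The wider pathway was described by 5 lists of 82 genes, of which 76 were tested. None passed an adjusted p of 0.05, and neither did any of all genes tested (0.0%). None had an unadjusted p under 0.05 in the edgeR fit, against 4.17% of all genes tested for higher and 0.813% for lower. The lowest unadjusted p was 0.069 for Fosl1. The median log2 fold change was -0.18 for 12 co-receptors and FGF-binding proteins, -0.13 for 12 heparan sulfate enzymes, -0.03 for 15 adaptors, -0.03 for 16 RAS and ERK genes and -0.31 for 21 targets, beside -0.02 for all genes tested. Of the 21 targets, 15 had a negative and 6 a positive log2 fold change, where 51.8% of all genes tested had a negative one. The lists were chosen with earlier results known, and nothing is read from these counts. The klotho co-receptor genes Kl and Klb, which endocrine FGFs require, did not pass the filter.

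Markers of other tissues were measured beside the FGF genes. The summed level of 8 caudal progenitor markers was 1.32 to 1.78 CPM in control and 0.433 to 1.498 in cdKO samples, with Msgn1 at 0 in all samples. The 7 markers of the isthmus and midbrain summed to 9.31 to 12.6 and 10.4 to 15.4 CPM, with Otx2 at 0. This sum rested on Gbx2 (5.91 to 12.6 CPM over all samples) and Wnt1 (0.872 to 4.43 CPM). En1, En2, Pax2 and Pax5 stayed at 0.492 CPM or less and did not pass the filter. The 8 myotome markers summed to 14.3 to 25.9 CPM in control samples, 14.8 to 25.3 in cdKO replicates 1 to 4 and 67.4 in cdKO replicate 5. In cdKO replicate 5 this rested on Mylpf (57.6 CPM), while Myod1 was at 0, Myf5 at 0.610, Myf6 at 0.414 and Myog at 0.650 CPM. The 7 erythroid markers summed to 0.872 to 18.5 CPM in control samples, and to 53.7 and 63.4 in cdKO replicates 3 and 5 against 2.60 to 10.46 in the other 3 cdKO samples. The 10 mesenchyme markers summed to 12.9 to 25.7 CPM in control samples and to 27.6, 15.1, 29.3, 29.3 and 28.8 CPM in cdKO replicates 1 to 5, so that 4 of the 5 cdKO samples lay above every control sample. Of the 10, 9 had a positive log2 fold change, with a median of 0.51, where 51.8% of all genes tested had a negative one. Twist1 and Col1a2 were higher at an unadjusted p under 0.05, against 4.17% of all genes tested (edgeR). None passed an adjusted p of 0.05. Twist1 was highest in cdKO replicates 3 (0.577 CPM) and 5 (1.61 CPM), against 0.0227 to 0.181 CPM in control samples. Of the other markers, Wnt1, Hba-a1 and Prrxl1 were also higher at an unadjusted p under 0.05, and Isl1 was lower. The part of cells of other tissues in the values of the FGF genes, Fgf10 of mesenchyme included, was not tested.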

How the data were processed

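The deposited values are raw counts, as whole numbers, of the reads on each exon bin in 10 samples. The submitters' processing notes name bcl2fastq 2.17, Trimmomatic 0.36, STAR 2.5.2b, Subread 1.5.2, DESeq2 and GRCm38. A bin of a few bases had about as many counts as its lower neighbour (median ratio 1.05 over 7355 bins), so reads were counted on every bin they overlap, and a gene's sum grows with the bins its reads cross.

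Bins were assigned to genes with GENCODE M21 (49384 of 49644 identifiers matched), and 3988 bins shared by several genes, with 1.17% of counts, were left out. Genes with low counts were removed by filterByExpr at a minimum of 10, libraries were scaled by TMM, and groups were compared by the quasi-likelihood test of edgeR 4.0.16 (R 4.3.3) with Benjamini-Hochberg adjustment at 0.05 over all genes. The standard error of a log2 fold change was its absolute value divided by the square root of the F statistic of the quasi-likelihood test. Single values were compared by exact two-sided permutation over 252 arrangements, for Onecut1 and Onecut3 on log2(CPM + 0.5). Alternatives were DESeq2 1.42.0 (size factors, Wald test), limma-voom (limma 3.58.1), library size only, no filter, other sets of bins, a replicate block and each sample left out. The fits and the permutation test were tested on simulated data. The members and gene lists were chosen with earlier results of these data known. Genes named with values for each sample are Fgf18, the 3 with the largest log2 fold change in each direction, the highest ligand, receptor and feedback gene per length and any whose groups did not overlap. Here these are Fgf18, Fgf5, Fgfr4, Spry2, Fgf12, Spred3, Fgfr3 and Dusp6. Fgf13 was added after its values were seen. A floor of 3 counts was 0.0288 to 0.0591 CPM, for counting error only.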

Additional observations from a re-analysis of the deposited data

Results flagged for a closer look

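In groups of 5 samples, a value was singled out when its gap to the nearest other sample was large for the range of the group (Dixon's 95% critical value). Of 59 groups looked at, over the 25 tested genes and the exon shares, 15 had such a value, where chance singles out about 1 in 20 groups, and 9 of the 15 came from cdKO replicate 5 and 4 from control replicate 5.

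In cdKO replicate 5, Fgf9 was at 6.44 CPM where the other cdKO samples had 1.52 to 2.79, Fgf20 at 0.610 against 0.119 to 0.179, Fgf12 at 9.28 against 0.773 to 3.03, Spry2 at 6.22 against 0.918 to 1.86 and Spred3 at 1.89 against 0.221 to 0.444 CPM. In the same library Fgfr3 was low at 41.4 CPM against 229 to 295, Fgfrl1 at 6.64 against 28.3 to 35.6 and Etv5 at 0.197 against 4.78 to 5.38 CPM. The IIIb share of Fgfr3 was 11.8% there, against 0.726% to 2.57%.

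In control replicate 5, Fgf15 was at 10.2 CPM against 4.74 to 5.72 in the other control samples and Spry1 at 10.4 against 2.77 to 4.58 CPM. The IIIb share was 17.6% for Fgfr2, against 0.947% to 4.76%, and 14.3% for Fgfr3, against 0.894% to 3.13%.

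Fgf10 was at 2.13 CPM in cdKO replicate 2, where the rest of the group had 1.14 to 1.41, and Fgf12 at 3.603 CPM in control replicate 1, against 1.17 to 1.40 in the other control samples.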

How the results depend on the processing

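Fgf18 was left out of the counts of genes called, as it was given no test. None of the other FGF genes and no pathway gene passed the adjusted threshold under any alternative or with any sample left out (lowest and highest count 0 and 0). The log2 fold change of Fgf5 stayed between -1.42 and -1.12. That of Fgf18 lay between -1.71 without cdKO replicate 1 and -1.04 with replicates 1 to 4 only. Because Fgf18 was chosen on its fall, nothing is read from its constant sign. Scaling by library size only moved the median of all genes to -0.15. The settings with only replicates 1 to 4, with at least 20 counts and with other distal bins were chosen after seeing the data.

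Some log2 fold changes changed sign, among them those of Fgf12 (0.89), Spred3 (0.71) and Fgfr4 (-0.74), and the cause was not tested. With replicates 1 to 4 only, they were 0.31 for Fgf2, 0.40 for Fgf3, -0.60 for Fgf11, -0.081 for Fgf12, 0.032 for Fgfrl1, 0.14 for Spry1, 0.091 for Spred1 and -0.24 for Spred3. With limma-voom they were 0.11 for Fgf2, 0.16 for Fgf3 and 0.029 for Fgfr3, and by library size only -0.066 for Fgf15, -0.14 for Fgf11 and -0.12 for Fgf14. Fgf3 had 0.0037 with DESeq2 size factors, 0.0013 with the DESeq2 Wald test and 0.068 on its single highest bin, where Fgfr4 had 0.11. Fgf14 had -0.0029 with no filter and -0.16 on bins of a single gene. With each sample left out, the ranges were -0.28 to 0.36 for Fgf2, -0.22 to 0.33 for Fgf3, -0.79 to 0.12 for Fgf20, -0.13 to 0.29 for Fgf15, -0.40 to 0.73 for Fgf11, -0.15 to 0.14 for Fgf14, -0.46 to 0.090 for Fgfr3, -0.21 to 0.15 for Fgfrl1, -0.53 to 0.052 for Spry1, -0.55 to 0.019 for Spred1 and -0.18 to 0.90 for Spred3.

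Of the exon shares, the difference of Fgfr2 ranged from -5.07 to -0.92 percentage points with each sample left out, the latter without control replicate 5. That of Fgfr3 ranged from -2.37 to 2.13 percentage points with each sample left out and was 0.14 with replicates 1 to 4 only, and that of Fgf14 ranged from -4.13 to 10.9 and was -1.53 with at least 20 counts. The difference of Fgf13 ranged from -25.4 to -16.7 with each sample left out, with an adjusted p under 0.05 each time. It was -17.7 with replicates 1 to 4 only (adjusted p = 0.057, where the exact permutation test of 4 samples against 4 cannot give less) and -21.9 on the outer distal bin (adjusted p = 0.35), so the count of first-exon shares called was 0 in each case.

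Same-numbered control and cdKO samples deviated together in some pairs only (correlations 0.08, -0.26, 0.11, 0.32 and 0.28 for replicates 1 to 5), so the numbers were not taken to pair the samples. With the replicate number as a block, edgeR called 0 FGF genes, and log2 fold changes turned to 0.11 for Fgf2, 0.16 for Fgf3 and 0.027 for Fgfr3. Permuted within same-numbered pairs, where p cannot fall below 0.0625, the Fgf13 share (-21.8 points), Onecut1 exon 1 (log2 difference -1.86) and Onecut3 (-0.94) could not pass 0.05 (0 called). Low counts limit Fgf5 and the ligands that were not tested.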
